A study of Mus musculus with 6 samples.

Results

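Transforming growth factor beta (TGF-beta) signaling was examined at the transcript level in the cerebellum of mice whose Purkinje cells carried an active form of the innate immune adaptor STING. The genes were the ligands Tgfb1, Tgfb2 and Tgfb3, the receptors Tgfbr1 and Tgfbr2, the signal transducers Smad2 and Smad3, the inhibitor Smad7, and Nrros, whose product anchors latent TGF-beta1 on microglia. They were taken by symbol, 9 of the 53746 genes in the count table, and all 9 passed the filter on low counts. Whole cerebella came from 2-month-old mice of 2 genotypes, with 3 separate mice in each (mice 1 and 2 male and mouse 3 female in both). N153SLSL/LSLPcp2-cre mice (Pcp2-cre) and N153SLSL/LSL mice (control) were both homozygous for a gain-of-function STING N153S allele silenced by a LoxP-Stop-LoxP cassette. Only the Pcp2-cre mice carried Cre recombinase, which the Pcp2 promoter drives in Purkinje cells, so the controls had the silenced allele and no Cre. Any effect of Cre itself cannot be told apart from that of the active allele.

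TGF-beta ligands are secreted as latent dimers, held in complexes with latency proteins and anchors until integrins or proteases release them. The free ligand brings together the type II receptor Tgfbr2 and the type I kinase Tgfbr1, which phosphorylates Smad2 and Smad3. These bind Smad4, enter the nucleus and change transcription, and Smad7 is among the genes they induce and feeds back on the type I receptor. In the brain, TGF-beta signaling is best known for keeping microglia in their homeostatic state, where TGF-beta1, its receptors and Nrros are all needed, and the other ligands are made by several neuronal, glial and choroid plexus cell types.

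Total counts lay between 6733178 and 10178218 per mouse. Sting1, which both genotypes carry in its engineered form, rose from 25.4 ± 2.08 CPM (read counts scaled to the size of the library) in control mice to 37.9 ± 5.55 CPM in Pcp2-cre mice (SD, n = 3 mice each; log2 fold change 0.57, edgeR quasi-likelihood adjusted p = 3.59e-04). Purkinje cell markers fell, with 4 of 5 past both thresholds and a summed level of 3036 to 3359 CPM against 5703 to 6264 CPM in controls. All 10 pan-microglial markers rose, with a summed level of 355 to 394 CPM against 120.7 to 128.6 CPM. Control mouse 3 stood apart from the other controls in choroid plexus markers, whose summed level was 31.1 CPM there, 784 CPM in control mouse 1 and 1217 CPM in control mouse 2, and 22.3 to 84.0 CPM in Pcp2-cre mice. In whole tissue, a change in the number of cells of a type and a change in the RNA of each cell cannot be told apart.

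Of the 9 genes, Tgfb1, Tgfbr1 and Tgfbr2 rose in Pcp2-cre mice, and Smad2 and Smad3 fell. Tgfb2, Tgfb3, Smad7 and Nrros did not pass the test. A gene was called when its Benjamini-Hochberg adjusted p was at most 0.05 and its log2 fold change at least 0.5 in size. By that rule 2 of the 9 were called, Tgfb1 and Tgfbr1, both higher in Pcp2-cre mice, beside 3.17% of all 16961 genes tested (1.37% higher and 1.79% lower). At an adjusted p of at most 0.05 and any fold change, 5 of the 9 passed, 3 higher and 2 lower, beside 7.74% of all genes tested (2.99% higher and 4.75% lower). The CPM of the genotypes did not overlap for 6 of the 9, 3 higher and 3 lower in Pcp2-cre mice, beside 22.3% of all genes tested (10.9% higher and 11.4% lower). The log2 fold changes ran from -0.41 to 0.78 with a median of 0.01. The summed CPM of the 9 genes overlapped between genotypes, at 227.1 to 235.4 in control and 227.7 to 238.5 in Pcp2-cre mice.

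**Figure D1:**
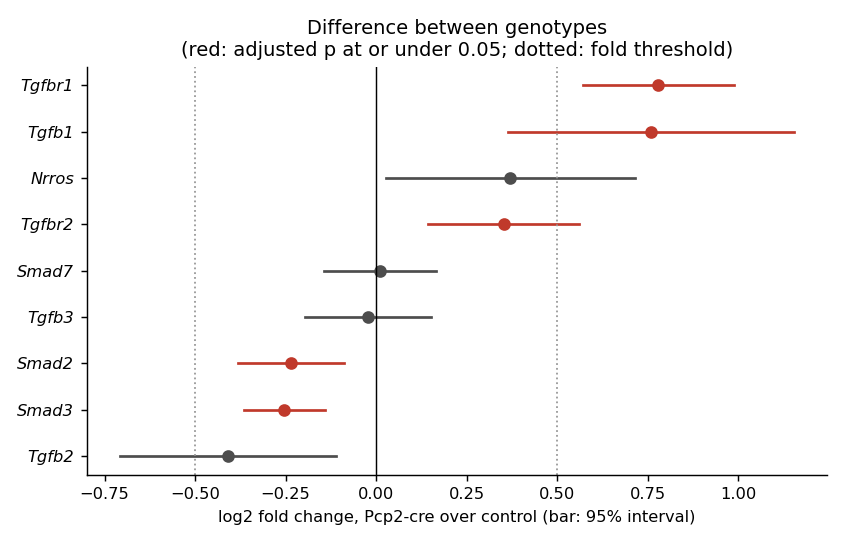
Log2 fold change of each gene, Pcp2-cre over control (x axis), with its 95% interval derived from the edgeR test as a bar, for 3 mice per genotype. Tgfbr1 and Tgfb1 lie beyond the dotted line at 0.5, Tgfbr2 lies above 0 and Smad2 and Smad3 below it with an adjusted p of at most 0.05 (red), and Tgfb3 and Smad7 lie at -0.02 and 0.01.

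The stretches of 250 bases upstream of the annotated transcript start are shown for 4 genes that passed the test, since these genes went in different directions. They were read from GRCm39 5′ to 3′ on the strand of each gene, at chr7:25386140-25386389 for Tgfb1 (plus strand), chr4:47352884-47353133 for Tgfbr1 (plus strand), chr9:116004801-116005050 for Tgfbr2 (minus strand) and chr9:63665477-63665726 for Smad3 (minus strand). Capitals mark matches, on either strand, to the SMAD box CAGAC, which SMAD3 and SMAD4 bind, and to the GC box GGGCGG, which SP1 family factors bind.
Tgfb1: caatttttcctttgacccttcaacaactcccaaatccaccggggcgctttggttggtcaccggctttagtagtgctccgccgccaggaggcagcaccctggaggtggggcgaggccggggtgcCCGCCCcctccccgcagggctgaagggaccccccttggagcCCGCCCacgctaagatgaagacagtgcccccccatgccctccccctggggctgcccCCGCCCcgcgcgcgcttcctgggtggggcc
Tgfbr1: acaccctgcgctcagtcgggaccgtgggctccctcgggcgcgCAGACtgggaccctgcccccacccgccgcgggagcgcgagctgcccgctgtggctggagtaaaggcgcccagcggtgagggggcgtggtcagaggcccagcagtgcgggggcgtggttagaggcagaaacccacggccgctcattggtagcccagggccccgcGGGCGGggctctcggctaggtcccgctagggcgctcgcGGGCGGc
Tgfbr2: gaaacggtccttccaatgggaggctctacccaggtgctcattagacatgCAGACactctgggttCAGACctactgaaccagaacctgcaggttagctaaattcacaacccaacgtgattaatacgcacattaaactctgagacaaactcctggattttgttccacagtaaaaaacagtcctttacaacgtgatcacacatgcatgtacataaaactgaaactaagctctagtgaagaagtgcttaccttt
Smad3: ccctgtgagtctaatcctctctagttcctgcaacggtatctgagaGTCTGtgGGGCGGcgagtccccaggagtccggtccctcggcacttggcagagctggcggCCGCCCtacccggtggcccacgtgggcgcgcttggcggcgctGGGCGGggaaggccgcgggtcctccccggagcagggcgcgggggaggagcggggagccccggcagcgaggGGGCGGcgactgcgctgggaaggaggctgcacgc

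Tgfb1 held 3 GC boxes and no SMAD box in this window, and Tgfbr1 held 2 GC boxes and 1 SMAD box. Tgfbr2 held 2 SMAD boxes and no GC box, and Smad3 held 4 GC boxes and 1 SMAD box. None of these matches overlapped another. Of 21770 promoters of protein-coding genes cut to the same length, 41.3% held a SMAD box and 36.3% a GC box. The letters GGAAGT (ETS core, in 19% of those promoters) and TGANTCA (AP-1 site, in 6.17%) were found in none of the 4 windows. The Tgfbr2 window stood apart in base composition, with 42.8% G and C against 69.6% for Tgfb1, 75.2% for Tgfbr1 and 73.6% for Smad3, and a median of 53.2% over all promoters. Neither the SMAD box nor the GC box was found in all 3 windows of the genes that rose. The window of Smad3, which fell, held both, and that of Smad2, which also fell, is not shown. Any link between these letters and the direction of change was not tested.

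Among the ligands, Tgfb1 rose 1.69-fold. Tgfb1 encodes the ligand that microglia make and depend on, and lies on chromosome 7 (GRCm39, 25386390 to 25404506, plus strand). Control mice 1, 2 and 3 had 4.23, 4.30 and 4.15 CPM, and Pcp2-cre mice 1, 2 and 3 had 8.80, 6.33 and 6.33 CPM. Every Pcp2-cre mouse lay above every control, and Pcp2-cre mouse 1 lay above the other two. The means were 4.23 ± 0.0794 and 7.15 ± 1.42 CPM (SD, n = 3), a log2 fold change of 0.76 (SE 0.189, 95% interval 0.37 to 1.15, edgeR adjusted p = 0.0128). These levels rest on few reads, with 29 to 42 counts per control mouse and 43 to 67 per Pcp2-cre mouse. Leaving out Pcp2-cre mouse 1 gave a log2 fold change of 0.58 and an edgeR adjusted p of 0.106, and DESeq2 gave an adjusted p of 0.0841 and the choroid plexus level as a covariate one of 0.109.

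Tgfb2 encodes a ligand made by neurons, glia and choroid plexus epithelium, and lies on chromosome 1 (186354985 to 186438294, minus strand). Its level was 15.4, 15.1 and 10.9 CPM in controls 1, 2 and 3, compared with 10.6, 10.8 and 9.13 CPM in the Pcp2-cre group. The groups did not overlap, but control mouse 3 lay next to the Pcp2-cre mice and far from the other controls. The means were 13.8 ± 2.56 and 10.2 ± 0.922 CPM, a log2 fold change of -0.41 (95% interval -0.71 to -0.11) that missed the threshold with an edgeR adjusted p of 0.0975.

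The 2 control mice with high Tgfb2 were the 2 with high choroid plexus markers. Of the 4 choroid plexus markers that could be tested, 3 were called lower in Pcp2-cre mice (Clic6, Ttr and Kl) and none of the 7 was at 0 in every mouse. With the choroid plexus level (here the mean log2 CPM of the 7 markers) as a covariate, the log2 fold change of Tgfb2 was -0.14 with an edgeR adjusted p of 0.802. Both mice high in these markers were controls, so this covariate and genotype are partly confounded. Without control mouse 3 the log2 fold change of Tgfb2 was -0.58 with an adjusted p of 0.00612, and with sex as a covariate -0.43 with an adjusted p of 0.0266. Tgfb2 shares 232 exonic bases with the lncRNA Gm29491 on the opposite strand, and reads there cannot be told apart without the strand.

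**Figure D2:**
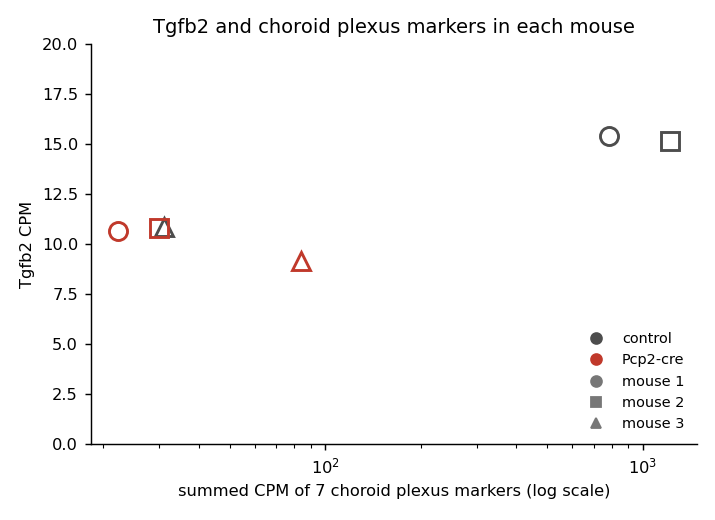
Tgfb2 level in CPM (y axis) against the summed CPM of 7 choroid plexus markers (x axis, log scale), 1 open symbol per mouse, with color for genotype and shape for the mouse number. Control mice 1 and 2 sit at the upper right, and control mouse 3, at 10.9 CPM of Tgfb2, sits with the Pcp2-cre mice at 9.13 to 10.8 CPM.

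Tgfb3, which lies on chromosome 12 (86102756 to 86126301, minus strand), encodes the third isoform of the ligand and was the most abundant of them. The controls had 27.0, 26.1 and 24.7 CPM of Tgfb3, and the Pcp2-cre mice had 25.3, 26.8 and 24.0 CPM. The groups overlapped, with means of 25.9 ± 1.17 and 25.4 ± 1.40 CPM. The log2 fold change was -0.02, with a 95% interval of -0.20 to 0.15 and an edgeR adjusted p of 0.949. No difference was detected, and one within these bounds remains possible. Its exons overlap those of Ttll5, Gm37804 and Gm48008 on the opposite strand by 179, 163 and 337 bases.

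Per length of transcript, Tgfb1 made up more and Tgfb2 less of the summed ligand transcripts in every Pcp2-cre mouse than in any control. FPKM are the values the authors deposited, fragments scaled to transcript length and library size, and they did not always follow the counts. For example, Smad2 in Pcp2-cre mouse 3 had the highest CPM of its group, 37.3, and the lowest FPKM, 5.14. The summed FPKM of the 3 ligands was 10.2 ± 0.655 in control and 10.5 ± 0.497 in Pcp2-cre mice, overlapping between genotypes (two-sided exact permutation p = 0.60). Tgfb1 made up 18.1, 15.5 and 16.9% of that sum in controls 1, 2 and 3, compared with 27.9, 25.5 and 27.0% in the Pcp2-cre group. Its mean share was 16.8 ± 1.29% against 26.8 ± 1.24%, higher by 9.99 percentage points. Tgfb2 made up 24.6, 24.7 and 21.4% in the controls, compared with 16.6, 15.4 and 14.5% in the Pcp2-cre group, a mean share of 23.6 ± 1.91% against 15.5 ± 1.06%. Neither share overlapped between genotypes, and both reached the smallest two-sided exact permutation p that 3 against 3 mice allow, 0.10, so no such share could pass 0.05. The shares were not adjusted for the choroid plexus markers, which were high in control mice 1 and 2. In control mouse 3, low in these markers, the Tgfb2 share of 21.4% still lay above that of every Pcp2-cre mouse. By FPKM, Tgfb2 thus outranked Tgfb1 in every control mouse, and Tgfb1 outranked Tgfb2 in every Pcp2-cre mouse. This swap was not seen in read counts, which are not scaled to length. There Pcp2-cre mice 1, 2 and 3 had 81, 94 and 62 counts of Tgfb2 against 67, 55 and 43 of Tgfb1. The share of Tgfb3 was 59.6 ± 2.21% and 57.7 ± 1.92%, with overlapping groups (exact permutation p = 0.40).

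**Figure D3:**
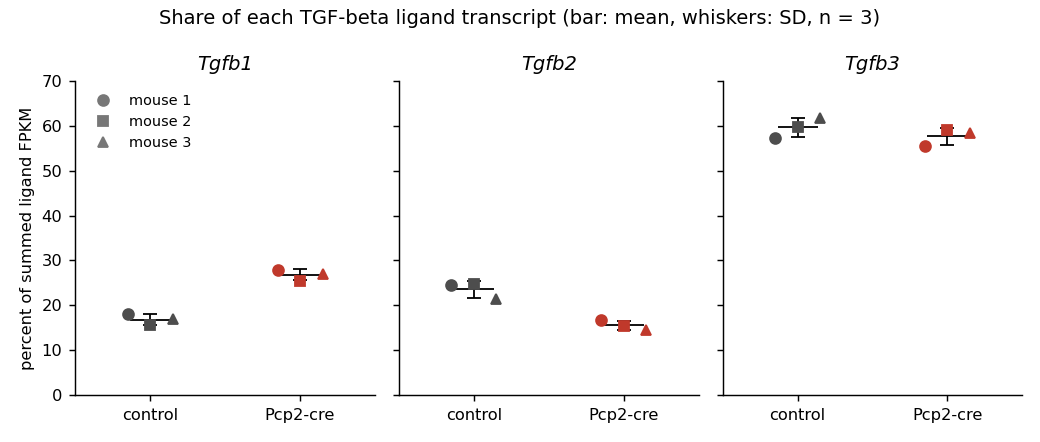
Share of each ligand in the summed FPKM of Tgfb1, Tgfb2 and Tgfb3 (y axis, percent), 1 symbol per mouse, with the mean as a bar and the SD as whiskers (n = 3 per genotype). The Tgfb1 share sits at 15.5 to 18.1% in control and 25.5 to 27.9% in Pcp2-cre mice, the Tgfb2 share goes the other way, and the Tgfb3 share overlaps between genotypes.

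Both receptor genes rose, Tgfbr1 by 1.72-fold and Tgfbr2 by 1.28-fold. Tgfbr1, which encodes the type I receptor kinase, lies on chromosome 4 (47353134 to 47414931, plus strand). Its level was 17.8, 16.3 and 17.2 CPM in the controls, compared with 26.9, 27.6 and 34.2 CPM in the Pcp2-cre group. All Pcp2-cre mice lay well above the controls, and Pcp2-cre mouse 3 was the highest. The means were 17.1 ± 0.732 and 29.6 ± 4.01 CPM, a log2 fold change of 0.78 (95% interval 0.57 to 0.99, edgeR adjusted p = 1.32e-05). Tgfbr1 kept an adjusted p of at most 0.05 in all 16 alternative analyses that were run.

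Tgfbr2, which encodes the type II receptor that binds the ligand first, lies on chromosome 9 (115913361 to 116004800, minus strand). The controls had 19.4, 17.4 and 17.2 CPM of Tgfbr2, and the Pcp2-cre mice had 21.7, 21.5 and 25.9 CPM. The groups did not overlap, but the gap between control mouse 1 and Pcp2-cre mouse 2 was small. The means were 18.0 ± 1.23 and 23.0 ± 2.51 CPM, a log2 fold change of 0.35 (95% interval 0.14 to 0.56, edgeR adjusted p = 0.0334). DESeq2 gave an adjusted p of 0.190, and limma on the FPKM values 0.0913 to 0.167. The edgeR adjusted p was 0.0409 without control mouse 1, 0.0885 without control mouse 2, 0.106 without control mouse 3, 0.0510 without Pcp2-cre mouse 1, 0.0550 without Pcp2-cre mouse 2 and 0.188 without Pcp2-cre mouse 3. On the opposite strand, Tgfbr1 shares 61 exonic bases with Gm32435 and Tgfbr2 shares 443 with Gm4668.

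Nrros, which encodes the protein that tethers latent TGF-beta1 on microglia and other myeloid cells, lies on chromosome 16 (31960320 to 31984521, minus strand). Controls 1, 2 and 3 had 6.47, 8.01 and 6.22 CPM, and the Pcp2-cre mice had 7.35, 9.89 and 9.13 CPM. The groups overlapped, since control mouse 2 lay above Pcp2-cre mouse 1. The means were 6.90 ± 0.973 and 8.79 ± 1.30 CPM, a log2 fold change of 0.37 (95% interval 0.03 to 0.71, edgeR adjusted p = 0.229). It rests on 52 to 86 counts per mouse. Nrros shares 510 exonic bases with Gm61064 on the opposite strand.

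**Figure D4:**
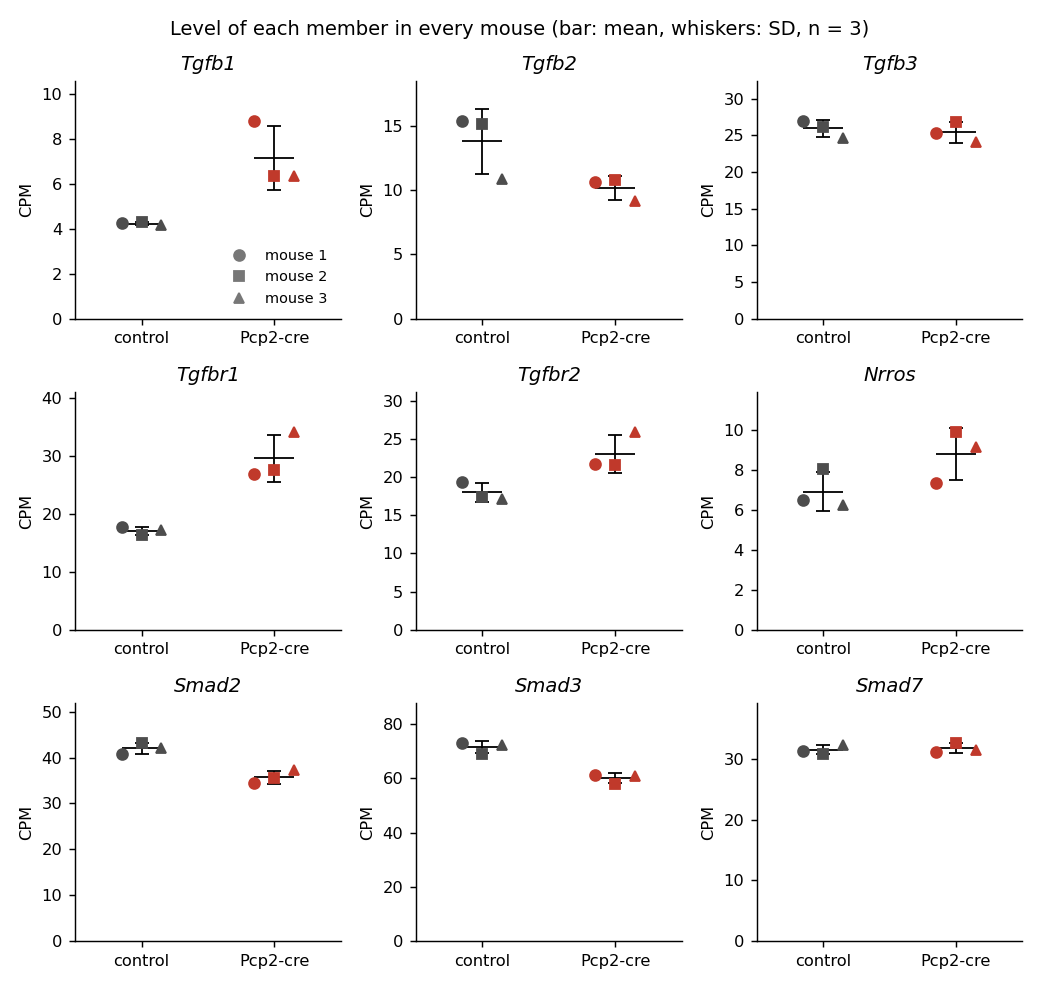
Level of each gene in CPM (y axis, starting at 0), 1 symbol per mouse, with the mean as a bar and the SD as whiskers (n = 3 per genotype). Tgfb1, Tgfbr1 and Tgfbr2 lie higher and Tgfb2, Smad2 and Smad3 lower in Pcp2-cre mice without overlap, while Tgfb3, Nrros and Smad7 overlap between genotypes.

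Tgfb1, Tgfbr1, Tgfbr2 and Nrros are all used by microglia, and all lay lower in Pcp2-cre mice when set against the pan-microglial markers. The mean log2 CPM of the 10 pan-microglial markers was 1.68 higher in Pcp2-cre mice, a larger difference than that of any of these 4 genes. The markers did not rise by 1 common amount, with log2 fold changes from 0.96 for Csf1r to 2.41 for C1qc. Relative to that mean, the log2 level of Nrros was -0.07, 0.29 and -0.25 in controls 1, 2 and 3, compared with -1.59, -1.04 and -1.43 in the Pcp2-cre group. That of Tgfbr2 was 1.48, 1.38 and 1.18 in the controls, compared with -0.06, 0.06 and 0.05 in the Pcp2-cre group. The differences were -1.35 for Nrros, -1.33 for Tgfbr2, -0.97 for Tgfb1 and -0.91 for Tgfbr1. In each of the 4 the groups did not overlap, with the smallest two-sided exact permutation p possible here, 0.10. The marker mean itself was 2.76 to 2.94 in controls and 4.39 to 4.66 in Pcp2-cre mice. A gene with no change would therefore also lie lower on this measure, so the outcome is not particular to these 4 genes. The share of each transcript that came from microglia was not measured, and the part of other cell types in these ratios was not tested.

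**Figure D5:**
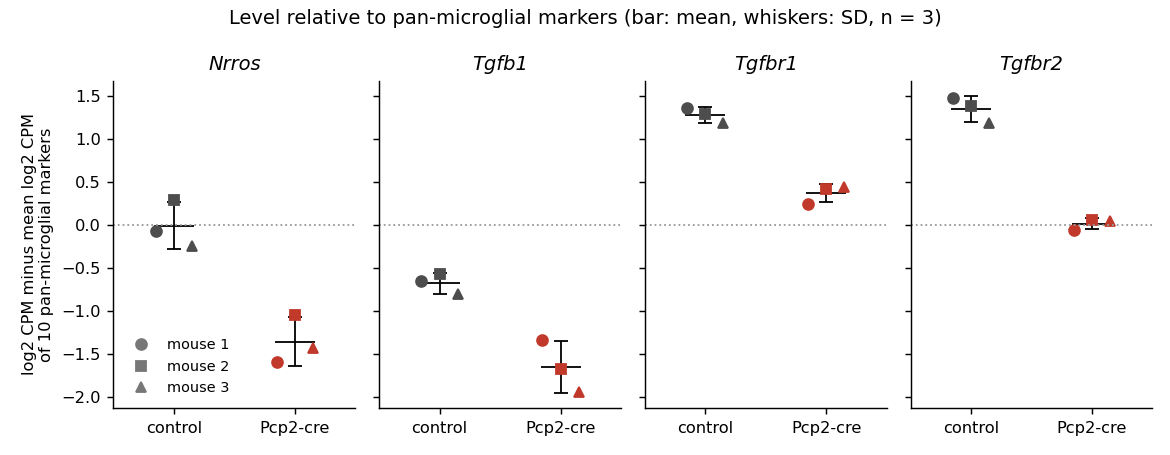
Log2 CPM of Nrros, Tgfb1, Tgfbr1 and Tgfbr2 minus the mean log2 CPM of 10 pan-microglial markers in the same mouse (y axis), 1 symbol per mouse, with the mean as a bar and the SD as whiskers (n = 3 per genotype). For every gene the 3 Pcp2-cre mice lie below the 3 controls, by 0.91 to 1.35 on average.

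Genes of homeostatic microglia that need TGF-beta signaling for their expression rose in part. Of 10 listed genes 9 could be tested, 6 were called higher and none lower. Their median log2 fold change was 0.87, below the 1.79 of the pan-microglial markers. Their CPM summed to 37.7 to 42.2 in controls and to 86.4 to 92.4 in the Pcp2-cre group. Sall1, a transcription factor of microglial identity, rose from 5.84 ± 1.04 to 10.9 ± 0.590 CPM (log2 fold change 0.87, edgeR adjusted p = 7.25e-04). Fcrls, an Fc receptor-like gene of microglia, rose from 3.64 ± 0.429 to 26.9 ± 3.12 CPM (log2 fold change 2.89, adjusted p = 1.12e-11), more than any other gene of the list. The 3 tested genes that did not pass, named after their values were seen, were P2ry12, Siglech and Tmem119, with log2 fold changes of 0.28, 0.15 and 0.06. Activated microglia markers had a median log2 fold change of 2.59, with 9 of 10 called higher and a summed level of 64.0 to 68.5 CPM against 164 to 195 CPM.

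Smad3 fell to 0.839 and Smad2 to 0.850 of the control level. Smad3, which encodes the DNA-binding transducer of TGF-beta and activin receptors, lies on chromosome 9 (63554049 to 63665476, minus strand). Its level was 73.1, 69.0 and 72.3 CPM in the controls, compared with 61.4, 58.0 and 61.0 CPM in the Pcp2-cre group. The groups did not overlap and each was tight. The means were 71.5 ± 2.18 and 60.1 ± 1.88 CPM, a log2 fold change of -0.25 (95% interval -0.37 to -0.14, edgeR adjusted p = 0.00354). This passed without any 1 mouse, but not with limma on the FPKM values, where the adjusted p reached 0.297.

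Smad2, the partner of Smad3 in the same signal, lies on chromosome 18 (76374327 to 76445180, plus strand). The controls had 40.7, 43.2 and 42.1 CPM of Smad2, and the Pcp2-cre mice had 34.4, 35.4 and 37.3 CPM. The groups did not overlap. The means were 42.0 ± 1.27 and 35.7 ± 1.46 CPM, a log2 fold change of -0.23 (95% interval -0.38 to -0.09, edgeR adjusted p = 0.0427). This lay close to the threshold, and the adjusted p was 0.254 with DESeq2, 0.227 with the choroid plexus covariate and 0.167 to 0.355 with limma on the FPKM values. The edgeR adjusted p was 0.0698 without control mouse 1, 0.131 without control mouse 2, 0.0761 without control mouse 3, 0.179 without Pcp2-cre mouse 1, 0.173 without Pcp2-cre mouse 2 and 0.0453 without Pcp2-cre mouse 3.

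Smad7, whose product blocks the type I receptor and which TGF-beta itself induces, lies on chromosome 18 (75500374 to 75529006, plus strand). Smad7 stood at 31.3, 30.9 and 32.4 CPM in the controls, compared with 31.1, 32.7 and 31.5 CPM in the Pcp2-cre group. The groups overlapped, with means of 31.5 ± 0.769 and 31.8 ± 0.806 CPM. The log2 fold change was 0.01, with a 95% interval of -0.14 to 0.16 (edgeR adjusted p = 0.975). None of Tgfb1, Smad2, Smad3 and Smad7 has an exon that overlaps another gene in the annotation.

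Markers of other cerebellar cell types stand beside these values. Among neurons, 4 of 5 Purkinje cell markers were called lower, led by Itpr1 with a log2 fold change of -0.98, and all 5 passed the adjusted p. No granule cell marker was called and 1 of 6 passed the adjusted p, Neurod1 with a log2 fold change of 0.17, with a median of 0.06 over 6 markers and a summed level of 4465 to 4630 CPM in controls against 4654 to 4824 CPM. Among glia, 2 of 8 astrocyte and Bergmann glia markers were called higher, Gfap and Aqp4. At any fold change 3 of the 8 passed the adjusted p upward and 1 downward, which was Slc1a3, a glutamate transporter of Bergmann glia, with a log2 fold change of -0.22. Of the oligodendrocyte markers 4 of 5 passed the adjusted p upward, with a median of 0.20 and none called. None of 8 endothelial, 6 mural, 4 meningeal fibroblast and 4 tested border macrophage markers was called, with medians of 0.10, 0.14, 0.10 and 0.15. Of these only the mural marker Vtn passed the adjusted p, with a log2 fold change of 0.21. The summed endothelial level did not overlap between genotypes, at 255.1 to 264.6 CPM in controls against 269.7 to 281.3 CPM. This was not particular to endothelium, since the granule cell sums above did not overlap either. Astrocyte and Bergmann glia markers summed to 2711 to 2773 CPM in controls against 3076 to 3163 CPM. Oligodendrocyte markers summed to 3043 to 3157 CPM in controls against 3583 to 3766 CPM. No marker of these lists was at 0 in every mouse. The part of these cell types in the values of Smad2, Smad3, Tgfbr1, Tgfbr2 and Tgfb1 was not tested.

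Ordered by FPKM, Smad3 was the most abundant of the 9 transcripts in both genotypes, at 11.8 ± 0.210 in control and 10.2 ± 0.708 in Pcp2-cre mice. In control mice Smad2 followed at 7.80 ± 0.413, then Smad7 at 6.25 ± 0.129 and Tgfb3 at 6.08 ± 0.262, whose ranges overlapped. Tgfbr1 at 2.46 ± 0.151, Tgfb2 at 2.41 ± 0.342, Nrros at 2.16 ± 0.622 and Tgfbr2 at 2.04 ± 0.154 each overlapped the next, and Tgfb1 came last at 1.71 ± 0.164, below the range of Tgfbr2. In Pcp2-cre mice Smad7, Tgfb3 and Smad2 overlapped at means of 6.18, 6.06 and 6.04 FPKM. Tgfbr1 stood alone below them at 4.29 ± 0.146, and Nrros, Tgfbr2 and Tgfb1 overlapped at 2.88 ± 0.635, 2.85 ± 0.126 and 2.81 ± 0.127. Tgfb2 was then the lowest of the 9, at 1.63 ± 0.164 FPKM. Smad2 thus ranked below Smad7 and Tgfb3 in Pcp2-cre mice, though with overlapping ranges, and Tgfb2 ranked below Tgfb1. Neither change of rank was seen in read counts, which are not scaled to length.

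Of 80 other listed genes of the TGF-beta superfamily 70 could be tested and none was called by edgeR, while 14 had an unadjusted p under 0.05, 9 higher and 5 lower, and DESeq2 also called none. These 14 were 20% of the 70, beside 18% of all genes tested with such a p. The median log2 fold change of the 70 was 0.02, and 5 had an edgeR adjusted p of at most 0.05, which was 7.14% of them and near the 7.74% of all genes tested. Of 9 genes of the latent complex and its activation that were tested, 1 passed the test upward and none downward. This was Thbs1, thrombospondin 1, an activator of latent TGF-beta1, which rose from 14.3 ± 1.14 to 19.6 ± 0.790 CPM (log2 fold change 0.44, adjusted p = 0.00685). Without control mouse 3 its log2 fold change was 0.51, which made it the only one of these genes to be called. Lrrc32, which anchors latent TGF-beta on other cells than Nrros does, had a log2 fold change of -0.12 (95% interval -0.61 to 0.38). Itgb8, a subunit of the integrin that releases TGF-beta in the brain, had one of -0.08 (95% interval -0.20 to 0.05), and both are named here for their roles.

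Among 8 co-receptors and other type I receptors, 1 passed the test upward and none downward. This was Bmpr1b, a type I receptor for bone morphogenetic proteins (BMPs), which rose from 21.8 ± 1.80 to 28.8 ± 2.78 CPM (log2 fold change 0.39, edgeR adjusted p = 0.0103). Its adjusted p was 0.0510 without control mouse 2, 0.0684 without Pcp2-cre mouse 1 and 0.0816 without Pcp2-cre mouse 3. None of 3 other type II receptors and none of 5 other SMADs passed the test, and Smad4, the shared partner of all receptor-regulated SMADs, was at 66.3 ± 4.14 and 65.2 ± 0.527 CPM (log2 fold change -0.03, 95% interval -0.15 to 0.09).

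Of 13 intracellular regulators only Fkbp1a, whose product FKBP12 binds and restrains type I receptors, passed the test. It fell by 0.14 on the log2 scale, from 186.5 ± 4.77 to 168.6 ± 4.26 CPM (edgeR adjusted p = 0.0357), and without control mouse 3 was the only omission of 1 mouse that kept this, the others giving 0.0502 to 0.210. Of 10 tested BMP, activin and GDF ligands Gdf10, a ligand of Bergmann glia, fell from 163.2 ± 14.2 to 137.7 ± 5.60 CPM (log2 fold change -0.25, adjusted p = 0.00424), and its adjusted p was 0.0816 without Pcp2-cre mouse 2. Gdf1 had no count in any mouse. None of 5 tested extracellular antagonists passed. The adjusted p of Thbs1, Bmpr1b and Fkbp1a was 0.0695, 0.0545 and 0.107 with DESeq2, and 0.143, 0.158 and 0.357 in edgeR with the choroid plexus covariate. With limma on the FPKM values the adjusted p of Gdf10 was 0.117 to 0.260 and none of the other 3 was under 0.2.

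Of 17 tested targets of TGF-beta and BMP signaling 1 passed the test downward and none upward. Their median log2 fold change was 0.05, with 10 above 0 and 7 below. The largest in size was that of Ccn1, named after its values were seen, at 0.68 (95% interval 0.08 to 1.28, edgeR adjusted p = 0.196). It rests on 11 to 30 counts per mouse. Id2, an inhibitor of basic helix-loop-helix factors that BMP and TGF-beta signals control, had 113.4, 112.2 and 112.1 CPM in the controls, compared with 84.8, 83.3 and 79.8 CPM in the Pcp2-cre group. The groups did not overlap and the log2 fold change was -0.44 (95% interval -0.54 to -0.35, edgeR adjusted p = 3.43e-07). Its adjusted p with limma on the FPKM values was 0.0582 to 0.244. The related Id1 and Id3, named for comparison after their values were seen, had log2 fold changes of 0.08 and -0.06 (adjusted p = 0.837 and 0.885). Exons of Id2 overlap those of 2 opposite-strand lncRNAs, the longer overlap covering 22.8% of its exon length.

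For each gene that passed the test, the genes nearest in pattern were found by the root mean square distance of log2 CPM, centred on the control mean, over the 6 mice among 16951 genes. For Tgfb1 they were Gngt2, Tbxas1 and Ska3, and the nearest lay at a distance of 0.0750. For Tgfbr1 they were Dock8, Fxyd7 and Tnni1, with Dock8 at 0.0528. For Tgfbr2 they were Poll, Lmo2 and Olfml2b, with Poll at 0.0479. The distances of the SMADs were smaller, with P2rx4 at 0.0226 from Smad2, followed by Cdk5r1 and Abcc12. Smad3 lay at 0.0198 from Plcb4, which encodes a phospholipase C, and next to Gnaq, which encodes the G protein subunit that activates it, and Rab11fip4. Plcb4 and Gnaq had log2 fold changes of -0.24 each, beside -0.25 for Smad3, a likeness that follows from how they were picked. A shared role of these genes was not tested. Since all the distances are over the same 6 mice, they describe a likeness in these libraries. Smad2 and Smad3 had more counts and smaller changes than Tgfb1, Tgfbr1 and Tgfbr2. The part of this in their smaller distances was not tested.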

How the data were processed

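Poly A-enriched RNA of whole cerebellum was sequenced in paired reads from 6 mice, 3 per genotype. The authors aligned trimmed reads to GRCm39 with STAR, counted them with featureCounts and assembled and quantified transcripts with StringTie on a Gencode annotation. Their versions, the Gencode release and the use of strand are not given in the sources used here. The deposited raw counts were whole numbers per gene, not normalized, and the authors also deposited FPKM values. Groups, sex and age came from the labels. Total counts per mouse lay between 6733178 and 10178218.

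With edgeR 4.0.16 in R 4.3.3, low-count genes were removed by filterByExpr, libraries were scaled by TMM, and the quasi-likelihood test compared 3 against 3 mice with no covariate over 16961 genes, with Benjamini-Hochberg adjustment over all of them. CPM are counts scaled to TMM-adjusted library sizes. Levels relative to pan-microglial markers used log2 CPM with a prior count of 2. Ligand shares used the deposited FPKM. These were compared by exact permutation tests. Alternatives were DESeq2 1.42.0 or only its size factors, keeping all genes or those with 10 counts or more in each mouse, adding a term for mouse number (the replicate block), sex or the choroid plexus level, limma 3.58.1 on log2(FPKM + 1) or log2(FPKM + 0.1), and leaving out each mouse. The choroid plexus level used as a covariate was the mean log2 CPM of the 7 markers, not their summed CPM. The script was tested on simulated data. Coordinates, exon overlaps and the promoter sequences came from GRCm39 with the Gencode M39 annotation.

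The text names all 9 genes, the listed pathway genes with an adjusted p of at most 0.05 (up to 4 a list), the 3 genes nearest in pattern among those averaging at least 1 CPM, Sting1, and the markers of smallest p. Other names were chosen after their values were seen. The genes and lists were chosen with earlier results of these data known.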

Additional observations from a re-analysis of the deposited data

How the results depend on the processing

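Tgfbr1 passed in all alternatives, Nrros in none, and the levels relative to microglia kept their direction. On that last measure a gene with no change would also lie lower. Of the 9 genes 2 were called, and 1 (Tgfbr1) with DESeq2, with the choroid plexus covariate and with limma on log2(FPKM + 1), with or without a filter; leaving out 1 mouse gave 1 (without Pcp2-cre mouse 1) to 3 (without control mouse 3, which added Tgfb2). At any fold change 5 passed, against 2 with DESeq2, 3 with the choroid plexus covariate, 2 with limma at either pseudocount, 1 without its filter, and 2 to 4 when 1 mouse was left out. Other superfamily genes called numbered 0 to 1 when 1 mouse was left out. Over all genes 537 were called, against 345 with limma on log2(FPKM + 1) and 221 without its filter. The Tgfb1 share was higher by 21.7 points when only Tgfb1 and Tgfb2 were summed, and by 9.34 to 10.7 points when 1 mouse was left out. The sign of Tgfb3 turned with the choroid plexus covariate (log2 fold change 0.025), and ran from -0.067 to 0.011 when 1 mouse was left out. That of Smad7 turned without a filter (-0.0012), with the choroid plexus covariate (-0.022) and with limma (-0.016 at a pseudocount of 1, with or without a filter, and -0.018 at 0.1), and ran from -0.013 to 0.031 when 1 mouse was left out. The cause of these changes was not tested.

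Mouse numbers were shared between genotypes, but same-numbered mice deviated together with correlations of only 0.041, 0.056 and 0.17 and not every mouse correlated best with its own number, so the numbers were not taken as pairs. With a replicate block the same 2 genes were called and 6 passed at any fold change, Tgfb2 being added (log2 fold change -0.43, edgeR adjusted p = 0.0393), as it was without a filter on low counts (adjusted p = 0.0483). With 29 to 67 counts per mouse for Tgfb1 and 52 to 86 for Nrros, depth limits these 2 genes most.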
